A study of Rattus norvegicus with 12 samples.

Results

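Genes for the fibrillar matrix of connective tissue were examined in sensory ganglia of the rat: the collagen genes Col1a1, Col1a2 and Col3a1 and the fibronectin gene Fn1. They were chosen by their Ensembl identifiers, 4 of the 32662 identifiers in the count tables, and by no threshold on measured values, although earlier results of these data were known at the choice. The 12 libraries came from 6 naive male Wistar Han rats, 10 weeks old and killed 2 weeks after arrival. Each rat, numbered R101 to R106, gave 1 library of trigeminal ganglia (TG), whose sensory neurons serve the face and head, and 1 of dorsal root ganglia (DRG), whose neurons serve the trunk and limbs. All animals were anaesthetized with pentobarbital and lidocaine and perfused with cold saline. The labels do not say from which spinal levels or sides the ganglia were taken. The comparison asks how TG and DRG differ in the expression of these matrix genes.

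Fibrillar collagens are rod-shaped triple helices that fibroblasts secrete as precursors and that assemble into fibrils outside the cell. Col1a1 and Col1a2 encode the α1 and α2 chains of type I collagen, the main load-bearing collagen of skin, tendon and bone. Col3a1 encodes the only chain of type III collagen, which forms finer fibrils in distensible tissues and vessel walls. Fn1 encodes fibronectin, a glycoprotein that binds integrins and collagens and on which collagen fibrils are laid down. In ganglia and nerves these proteins lie in the capsule and epineurium, around vessels and in the endoneurium between axons.

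Libraries held 11876597 to 15144027 counts in genes in TG and 13336016 to 17184211 in DRG. Reads outside annotated genes were 20.8% ± 0.26 of the reads in TG and 16.3% ± 0.44 in DRG (SD, n = 6). The tables hold identifiers without symbols, and the symbols of the 4 genes are those given with their identifiers. No reference used here pairs the other identifiers with symbols, so markers of neurons, glia, fibroblasts and other cells, which would check the labelled tissues, and further matrix genes were not analysed here. As these are bulk tissues, fewer cells of a type and less RNA per cell cannot be told apart.

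Col3a1 and Fn1 were about 4-fold lower in TG than in DRG, and Col1a1 was lower by a smaller factor. All 3 genes were lower in TG in 6 of 6 rats and their TG and DRG libraries did not overlap. The identifier paired with Col1a2 had almost no reads in either tissue. Of all 14554 tested genes, 57.3% were called different (edgeR, adjusted p under 0.05), 27.4% were called lower in TG, 3.74% were called lower by at least 2-fold, and 16.9% were lower in TG without overlap between the tissues. A call or a separation by itself was therefore common in this comparison, while a fall of at least 2-fold, found for 2 of the 3 measured genes, was less so.

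Col3a1 (ENSRNOG00000003357), the type III collagen gene, was at 316 CPM in the TG library and 1088 CPM in the DRG library of rat R101 (CPM, reads relative to the total of the library, adjusted with TMM factors). In rat R102 it was at 308 CPM in TG against 1511 CPM in DRG, and in rat R103 at 244 CPM and 1268 CPM. In rat R104 it was at 255 CPM in TG against 1280 CPM in DRG, in rat R105 at 528 CPM and 1411 CPM, and in rat R106 at 361 CPM and 1508 CPM. The TG library of rat R105 was the highest of its tissue and still lay below every DRG library, the lowest of which was 2.06 times as high. Means were 335 ± 103.5 CPM in TG against 1344 ± 164 CPM in DRG (SD, n = 6), and the log2 fold change of TG relative to DRG was -2.004 ± 0.19 (SE; edgeR quasi-likelihood test, adjusted p = 3.8e-06). This corresponds to a level 4.01-fold higher in DRG, with a 95% interval of 3.02 to 5.34. Within single rats the factor ranged from 2.67 in rat R105 to 5.20 in rat R103.

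Fn1 (ENSRNOG00000014288), the fibronectin gene, was at 70.4 CPM in the TG library and 202 CPM in the DRG library of rat R101. In rat R102 it was at 84.6 CPM in TG against 309 CPM in DRG, and in rat R103 at 49.0 CPM and 226 CPM. In rat R104 it was at 60.8 CPM in TG against 330 CPM in DRG, in rat R105 at 89.3 CPM and 281 CPM, and in rat R106 at 105.9 CPM and 397 CPM. Rat R106 had the highest level in both ganglia, and its TG library lay below the lowest DRG library, that of rat R101, which was 1.91 times as high. Means were 76.7 ± 20.7 CPM in TG against 291 ± 70.8 CPM in DRG (SD, n = 6). On the log2 scale TG differed from DRG by -1.92 ± 0.22 (SE; edgeR, adjusted p = 2.0e-05), a level 3.79-fold higher in DRG with a 95% interval of 2.71 to 5.29. The factor within a rat was 2.88 at the lowest (R101) and 5.42 at the highest (R104). Fn1 had the fewest reads of the 3 measured genes, with 680 in the lowest library, where counting alone gives a relative SD of 3.83%.

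Col1a1 (ENSRNOG00000003897), which encodes the α1 chain of type I collagen, was at 699 CPM in the TG library and 934 CPM in the DRG library of rat R101. In rat R102 it was at 896 CPM in TG against 1269 CPM in DRG, and in rat R103 at 504 CPM and 1038 CPM. In rat R104 it was at 636 CPM in TG against 1073 CPM in DRG, in rat R105 at 805 CPM and 1125 CPM, and in rat R106 at 674 CPM and 1242 CPM. The tissues barely separated: the lowest DRG library, of rat R101, was 1.04 times as high as the highest TG library, of rat R102. Means were 702 ± 136 CPM in TG against 1113 ± 127 CPM in DRG (SD, n = 6). On the log2 scale TG differed from DRG by -0.66 ± 0.13 (SE; edgeR, adjusted p = 9.9e-04), a level 1.59-fold higher in DRG with a 95% interval of 1.30 to 1.93. The interval lay within 2-fold, and a test against a fold of 1.5 was not passed (edgeR, adjusted p = 0.69), whereas Col3a1 and Fn1 passed it (edgeR, adjusted p = 6.2e-05 and 3.3e-04).

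**Figure D1:**
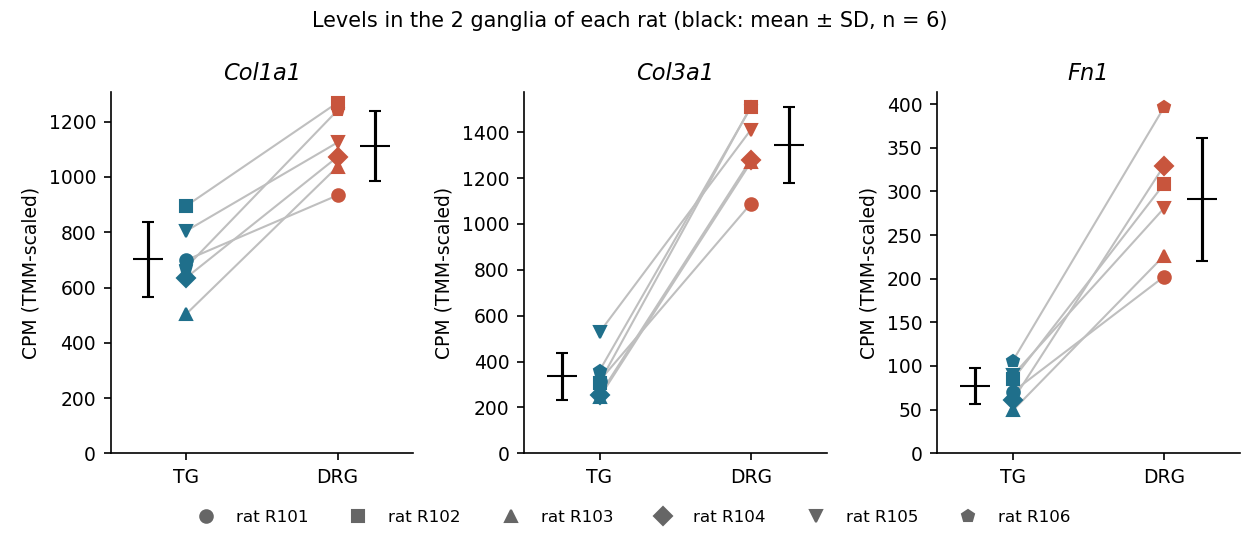
Level of Col1a1, Col3a1 and Fn1 (CPM after TMM scaling, vertical axes from 0) in the TG and DRG library of each rat, with grey lines joining the libraries of a rat and black bars giving mean ± SD (n = 6). Every line rises from TG to DRG, and the gap between the tissues is widest for Col3a1, with TG at 244 to 528 CPM and DRG at 1088 to 1511 CPM, and narrowest for Col1a1, with TG at 504 to 896 CPM and DRG at 934 to 1269 CPM.

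The row given as Col1a2, ENSRNOG00000011292, had 0 counts in 11 of the 12 libraries and 1 count in the DRG library of rat R105. Over the 6 TG libraries, a count of 0 allows up to 0.037 CPM (3 counts, counting error only). It did not pass the filter on low counts, no fold change was computed, and 3 of the 4 genes were therefore tested. An empty or nearly empty row was common in these tables, as 11149 identifiers (34.1%) had at most 1 count over all 12 libraries. Type I collagen of most tissues is assembled from α1 chains together with an α2 chain, and Col1a1 had 6998 to 18915 reads per library. The row was therefore not read as the level of Col1a2. Whether reads of Col1a2 were counted under another identifier or fell among the reads given to no gene was not tested.

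The size of the falls was set against that of all tested genes. Among the 14554 genes, whose median log2 fold change was 0.01, 95 (0.65%) had a log2 fold change as low as that of Col3a1 or lower, 112 (0.77%) as low as that of Fn1 and 1070 (7.35%) as low as that of Col1a1, each gene itself included. Because weakly expressed genes can reach larger fold changes, the same was done for genes with a mean of at least 100 CPM, a limit chosen after the values had been seen. Of these 2173 genes, 47.5% were called lower in TG. Col3a1 had the lowest log2 fold change of them in this fit and Fn1 the fourth lowest, while 130 genes (5.98%) were as low as Col1a1. The lowest 4 values, -2.004, -1.98, -1.93 and -1.92, lay within 1 standard error of each other, so their order is not resolved. The mean behind the limit was taken over all 12 libraries. Fn1 reached it through DRG, at a mean of 291 CPM against 76.7 CPM in TG. Its place among these genes is therefore a description and gives its fall no further support.

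**Figure D2:**
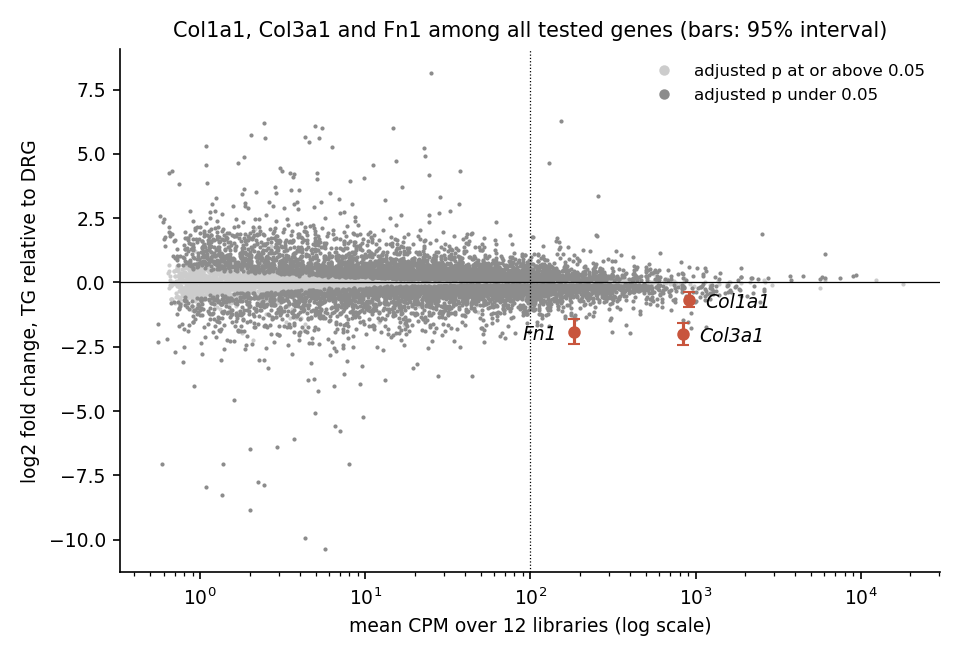
Log2 fold change of TG relative to DRG (vertical axis) against mean CPM over the 12 libraries (horizontal axis, log scale) for the 14554 tested genes, each a dot, in darker grey at an adjusted p under 0.05. Red points with 95% intervals show Col1a1 (-0.66), Col3a1 (-2.004) and Fn1 (-1.92), and right of the dotted line at 100 CPM Col3a1 and Fn1 lie at the lower edge of the genes.

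TG libraries had fewer reads of Col3a1 and of Fn1 per read of Col1a1 than DRG libraries, which follows from their larger falls. Fn1 per Col3a1 overlapped between the tissues. How often ratios of other gene pairs separate the tissues was not tested. Ratios of read counts within a library do not depend on how libraries are scaled, and they are described here without a test. Reads of Col3a1 per read of Col1a1 were 0.45, 0.34, 0.48, 0.40, 0.66 and 0.54 in the TG libraries of rats R101 to R106, and 1.17, 1.19, 1.22, 1.19, 1.25 and 1.21 in the DRG libraries. DRG libraries thus had more reads of Col3a1 than of Col1a1 and TG libraries fewer, in 6 of 6 rats each, and rat R105 had the highest ratio in both ganglia. Because reads also depend on transcript length, the ratios compare libraries and not the amounts of the 2 transcripts.

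The Col3a1 to Col1a1 ratio varied little between DRG libraries. Its coefficient of variation over the 6 rats was 2.53% in DRG, where counting alone gives 1.06%. In TG it was 22.8%, where counting alone gives 1.83%. The ratio was 1.21 ± 0.031 in DRG and 0.48 ± 0.11 in TG (SD, n = 6).

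Reads of Fn1 per read of Col1a1 ranged from 0.094 to 0.157 in TG and from 0.217 to 0.319 in DRG, also without overlap. Reads of Fn1 per read of Col3a1 ranged from 0.169 to 0.294 in TG and from 0.179 to 0.263 in DRG, with medians of 0.231 and 0.202. These ranges overlapped, and the ratio was higher in DRG in 2 of 6 rats. The mean of this ratio in DRG was 0.92 times that in TG, compared with 2.52 times for Col3a1 per Col1a1 and 2.37 times for Fn1 per Col1a1. Together, Col1a1, Col3a1 and Fn1 took 0.113% ± 0.023 of the counts in genes in TG and 0.271% ± 0.034 in DRG (SD, n = 6).

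**Figure D3:**
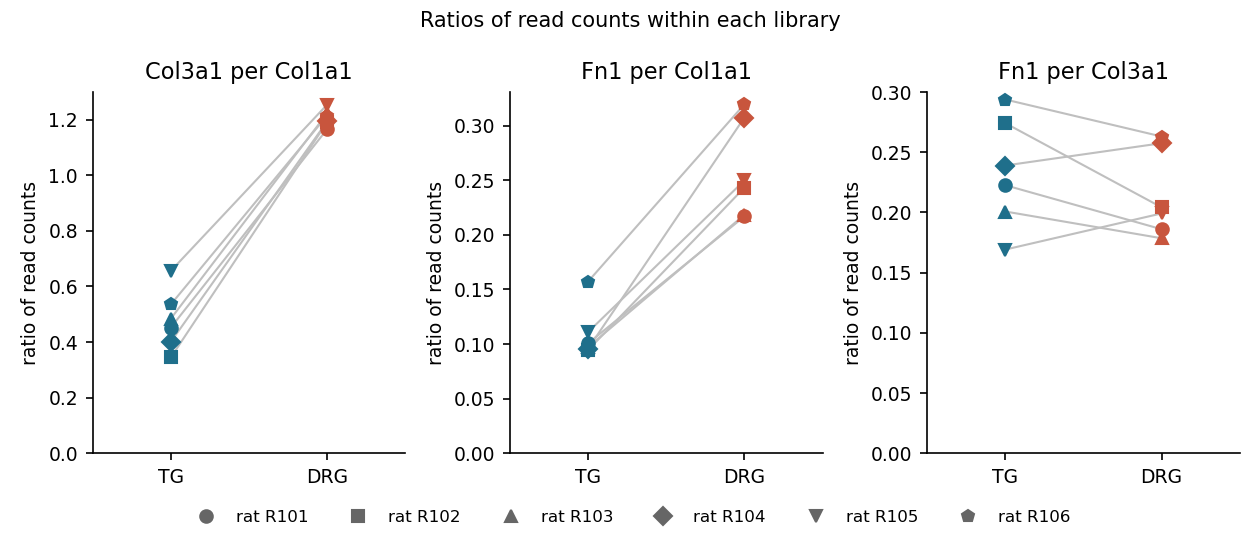
Ratio of read counts of Col3a1 to Col1a1, Fn1 to Col1a1 and Fn1 to Col3a1 (vertical axes from 0, no unit) in the TG and DRG library of each rat, with grey lines joining the libraries of a rat. Col3a1 per Col1a1 lies at 0.34 to 0.66 in TG and in a tight group at 1.17 to 1.25 in DRG, whereas Fn1 per Col3a1 overlaps between the tissues.

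The matrix genes varied more between the libraries of a tissue than most genes did. With 1 library per rat and tissue, differences between rats and between samples cannot be told apart in this spread. Over the 6 TG libraries, the SD of log2 CPM was 0.29 for Col1a1, 0.40 for Col3a1 and 0.40 for Fn1, against a median of 0.12 over all tested genes. In TG, 83.5% of tested genes had a smaller SD than Col1a1, 91.3% a smaller one than Col3a1 and 91.4% a smaller one than Fn1. In DRG the SD was 0.17 for Col1a1, 0.18 for Col3a1 and 0.36 for Fn1, against a median of 0.11, and 67.9%, 71.3% and 90.9% of tested genes had a smaller one. The SD of Col3a1 in TG rested on the library of rat R105 (528 CPM), without which it was 0.23. Leaving out any other single library, in TG or DRG, moved none of these SDs by as much as 1.5 times (chosen after seeing the data). Some came near this limit. The SD of Col3a1 in DRG was 0.12 without rat R101, and that of Col1a1 in TG was 0.20 without rat R103. A difference in spread between the tissues was not tested.

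In DRG, Col1a1 and Col3a1 went up and down together between libraries. Over the 6 DRG libraries their log2 CPM had a Pearson r of 0.98 and a Spearman rho of 1 (exact permutation p = 0.0028 for each, the smallest that 6 libraries can give; adjusted p = 0.017 over 6 pairs). Without rats R101 and R102, the farthest from the median of Col1a1, r was 0.97. In TG the same pair had an r of 0.60 and a rho of 0.60 (exact permutation p = 0.19 and 0.24, adjusted 0.19 and 0.24). Without rats R103 and R102 the r in TG was 0.94 over 4 libraries. The TG library of rat R102 had the highest Col1a1 level (896 CPM) but a Col3a1 level of 308 CPM, near the middle of its tissue, and that of rat R105 the highest Col3a1 level (528 CPM). A difference of the correlation between the tissues was not tested. How many other genes follow either collagen as closely in DRG alone was not counted.

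**Figure D4:**
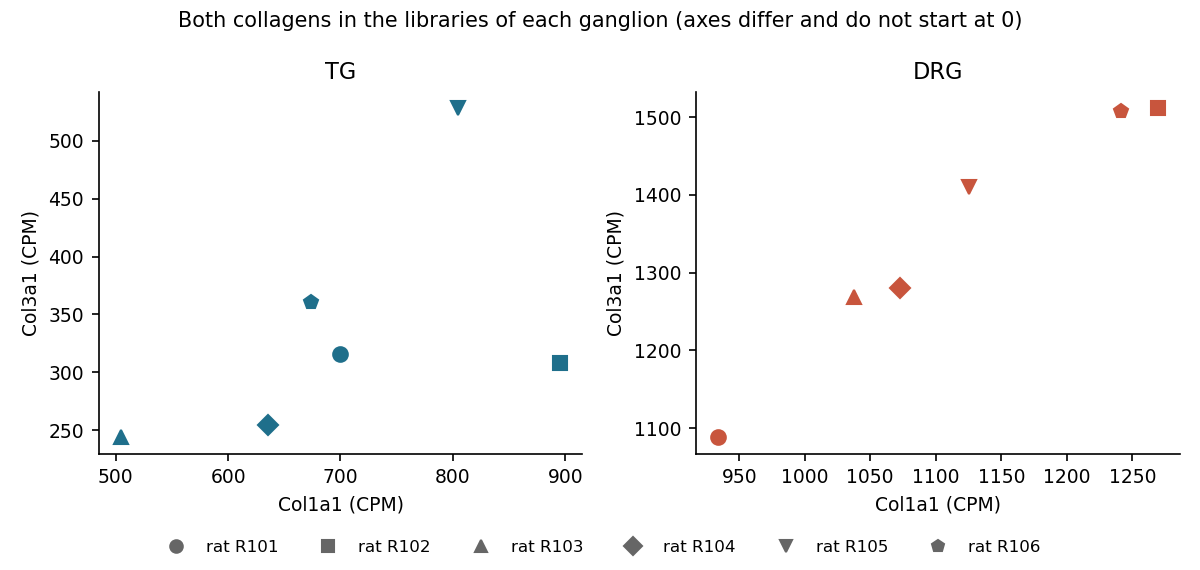
Col3a1 against Col1a1 (both in CPM after TMM scaling; axes differ between the panels and do not start at 0) in the 6 TG libraries and the 6 DRG libraries, with a marker for each rat. In DRG the rats stand in the same order for both genes, from R101 (934 and 1088 CPM) to R102 (1269 and 1511 CPM). In TG the order differs, with Col1a1 highest in rat R102 (896 and 308 CPM) and Col3a1 highest in rat R105 (805 and 528 CPM).

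Fn1 did not pass with either collagen in this family of 6 pairs. In DRG its Pearson r was 0.82 with Col1a1 and 0.80 with Col3a1 (exact permutation p = 0.050 and 0.061, both adjusted 0.096), and rho was 0.71 with each (exact permutation p = 0.14, adjusted 0.20). Without rats R101 and R102 these r were 0.83 and 0.68. In TG its r was 0.72 with Col1a1 and 0.74 with Col3a1 (exact permutation p = 0.11 and 0.064, adjusted 0.13 and 0.096), and rho was 0.60 and 0.89 (exact permutation p = 0.24 and 0.033, adjusted 0.24 and 0.10). Without the 2 libraries farthest from the median of the collagen, these r were 0.42 and 0.90.

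A rat with a high level in one ganglion was not shown to have a high level in the other. Between the TG and DRG libraries of the same rat, Pearson r was 0.49 for Col1a1, 0.36 for Col3a1 and 0.61 for Fn1, and rho was 0.54, 0.31 and 0.49. None of the 3 genes passed (exact permutation p = 0.34, 0.45 and 0.21 for r and 0.30, 0.56 and 0.36 for rho, the adjusted values being 0.45 for each r and 0.53, 0.56 and 0.53 for rho). Without the 2 rats farthest from the median in TG, r was 0.03 for Col1a1, 0.33 for Col3a1 and -0.01 for Fn1. In a fit with rat and tissue, 3.66% of the tested genes depended on the rat. None of the 3 matrix genes passed that test (edgeR, adjusted p = 0.47 for Col1a1, 0.60 for Col3a1 and 0.33 for Fn1; unadjusted p = 0.13, 0.24 and 0.060).

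The levels were also set beside ENSRNOG00000031927, the identifier with the largest rise in TG, which was known from earlier results to lead a group of genes that vary together between TG libraries. It was at 49.8, 73.4, 52.4, 68.5, 30.6 and 25.9 CPM in the TG libraries of rats R101 to R106 and at most 0.37 CPM in DRG. Over the 6 TG libraries, the Pearson r with it was 0.00 for Col1a1, -0.71 for Col3a1 and -0.60 for Fn1, and rho was 0.09, -0.71 and -0.60. None passed (exact permutation p = 0.97, 0.14 and 0.21 for r and 0.92, 0.14 and 0.24 for rho; adjusted 0.97, 0.32 and 0.32 for r and 0.92, 0.36 and 0.36 for rho). The negative values of Col3a1 and Fn1 rested on rats R105 and R106, without which r was 0.04 and 0.51, and that of Col1a1 was 0.60. The TG libraries of these 2 rats had the lowest levels of this identifier and the highest 2 levels of both Col3a1 and Fn1. The part of this group of genes in the difference between the tissues was not tested.

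Genes with the most similar pattern were sought among 14141 tested genes with a mean of at least 1 CPM, by the Pearson correlation over the 12 libraries of log2 CPM from which the mean of each tissue had been taken. These are descriptions, as libraries of a tissue share their source and scaling. The correlations were not repeated without single libraries, although the SD of Col3a1 in TG rested on the library of rat R105. A correlation above 0.9 was found for 3 genes with Col1a1, 6 with Col3a1 and 11 with Fn1, while the 3 matrix genes had 0.68 to 0.74 with each other. The most similar gene to Col1a1 was ENSRNOG00000043332 (r = 0.92), at 1.74 ± 0.68 CPM in TG against 3.99 ± 1.15 CPM in DRG (SD, n = 6), which fell in TG by 1.19 ± 0.24 on the log2 scale (SE; edgeR, adjusted p = 5.5e-04). The most similar gene to Col3a1 was ENSRNOG00000051307 (r = 0.97), at 6.55 ± 3.004 CPM in TG against 25.6 ± 4.28 CPM in DRG, which fell by 1.98 ± 0.23 on the log2 scale (SE; edgeR, adjusted p = 1.7e-05). The most similar gene to Fn1 was ENSRNOG00000013717 (r = 0.95), which did not pass between the tissues, with 13.5 ± 3.19 CPM in TG against 12.8 ± 3.09 CPM in DRG (edgeR, adjusted p = 0.71).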

How the data were processed

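Poly(A)-selected RNA of 6 TG and 6 DRG samples was sequenced by Illumina (per the labels' protocols). The authors deposited whole-number read counts per gene, 1 file per library. STAR, HTSeq and the build Rnor_6.0 are named in the submitters' processing notes. The sources used here do not give versions, annotation or strand use. Reads of overlapping or antisense genes may therefore be mixed. The 5 closing rows of reads given to no gene were left out.

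The counts were tested with edgeR 4.0.16 in R 4.3.3 (filterByExpr by tissue, TMM, robust quasi-likelihood test, tissue only, Benjamini-Hochberg over all tested genes, called under 0.05). Standard errors were derived from the fold change and the F statistic. Log2 CPM used a prior count of 2. The test was checked on data simulated from these libraries. Every simulated gene had the same spread and no rat effect. That spread was below the spread of Col1a1, Col3a1 and Fn1 in both tissues, though only slightly for Col1a1 and Col3a1 in DRG. The check therefore does not cover genes as variable as these. Correlations used all 720 pairings (scipy 1.17.1), two-sided. A floor or SD from counts covers counting error only.

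Both libraries of a number came from 1 animal, so the numbers pair the samples. Deviations from the tissue means over the 14554 tested genes correlated at 0.23 to 0.34 within rats and at -0.14 to 0.10 between rats. The rat as a replicate block was an alternative.

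The 4 genes and all lists were chosen with earlier results of these data known. The 9 pathway and 14 marker lists need symbols; 0 of the 32662 identifiers matched the reference table (GRCr8), so they were not analysed here. The rule for named genes then gave the 4 genes and the first gene by likeness of each. Coordinates are not printed, as the builds differ.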

Additional observations from a re-analysis of the deposited data

Results flagged for a closer look

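Of 15 sets of 6 values examined for a library far from the others (CPM, ratios within libraries and factors within rats), 1 stood out, where chance gives about 1 in 20. It was the number of Fn1 reads per Col1a1 read in TG, which was 0.157 in rat R106 and 0.094 to 0.111 in the other 5 TG libraries. The gap to the next library was 73.7% of the whole range. Rat R106 also had the highest ratio in DRG, 0.319, where it did not stand apart from rat R104 at 0.307. Without the TG library of rat R106, the log2 fold change of Fn1 was -2.04 (edgeR, adjusted p = 2.6e-05).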

How the results depend on the processing

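Col1a1, Col3a1 and Fn1 were refitted under 29 alternatives, 2 of them chosen after seeing the data (all reads of a file as library size, and a fit without the DRG library of R103 and the TG library of R104). All kept their direction and their call except Col1a1 in the test against a fold of 1.5, where by construction the log2 fold change stayed at -0.66 and the adjusted p was 0.69. That test called 1507 genes in place of 8341, the only count that moved by over 1.5 times. With the rat as a replicate block, the log2 fold changes were -0.68 for Col1a1, -2.04 for Col3a1 and -1.93 for Fn1. The block changed no call of these 3 genes (edgeR, adjusted p = 0.0014, 1.3e-04 and 7.1e-05). Over all tested genes it called 8834 in place of 8341. Leaving out a rat or a library gave -0.75 to -0.59 for Col1a1, -2.18 to -1.93 for Col3a1 and -2.04 to -1.81 for Fn1 (edgeR, largest adjusted p = 0.0080, 8.9e-05 and 2.8e-04). With all reads of a file as library size, which takes up the unequal share of reads outside genes, the log2 fold changes were -0.70, -2.04 and -1.95. That fit used no TMM factors. The fit with library totals only, also without TMM factors, gave -0.62, -1.96 and -1.88. Dependence on the rat passed for none of the 3 genes in any of 7 alternatives (edgeR, smallest adjusted p = 0.13, Fn1 without rat R104). The row given as Col1a2 had too few counts for any fit. Fn1 had the fewest reads of the 3 genes, with 680 in its lowest library. Counting alone gives a relative SD of 3.83% there. The coefficient of variation of Fn1 between libraries was larger, 26.9% in TG and 24.3% in DRG.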
